A study of Mus musculus with 18 samples.

Results

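The genes described here encode the secreted Wnt ligands, their Frizzled receptors, and the secreted proteins that raise or lower Wnt signalling, taken as every gene of the single-cell count matrix whose symbol begins with Wnt, Fzd, Sfrp, Dkk or Rspo followed by a digit. Of 20275 genes in the matrix, 36 met this rule. They comprised 14 Wnt genes, 10 Frizzled genes, 4 R-spondin genes, 4 secreted frizzled-related (Sfrp) genes, 3 Dickkopf (Dkk) genes and Rspo4os, a transcript from the strand opposite Rspo4. Counts were summed over all cells, and 30 of the 36 genes had at least 200 unique molecular identifiers (UMIs, each standing for 1 captured mRNA). The other 6 were too rare to describe by cluster.

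The cells came from the skeletons of C57B6/J mice at embryonic day (E) 16.5, E18.5, postnatal day (P) 0 and adulthood, with no treatment or engineered allele named in the labels. Hematopoietic progenitors (HPs) were sorted as Lineage-Kit+ cells and stroma as CD45-Ter119- cells after enzymatic digestion of the bone. Fetal and P0 cells came from the whole skeleton without the head and adult cells from leg bones, pelvis and spine, and every library pooled several animals. The matrix held 20982 HPs in 5 libraries and 35219 stromal cells in 4 libraries. Each stage had 1 library per compartment, except that HPs at E16.5 had 2, so no difference between stromal stages has a replicate and none of them was tested. Libraries held 13974733 to 127489333 UMIs in HPs and 91868751 to 194892476 in stroma. Levels are given as CPM, the UMIs of a gene per 1000000 UMIs of the same library or cluster, with exact 95% Poisson intervals that cover counting error only. Because the libraries read mRNA from its 3′ end, levels are compared within a gene and not between genes. In sums over a library, fewer cells of a type and less RNA per cell cannot be told apart.

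The sorting markers followed the labels. Ptprc, which encodes CD45, lay between 79.3 and 163 CPM in HPs and between 0.00889 and 0.0564 CPM in stroma. Kit lay between 109 and 348 CPM in HPs and between 0.969 and 2.48 CPM in stroma. The adult HP library nonetheless held a cluster of 56 cells with the deposited code Stroma, led by Col2a1. Col2a1 was at 11.8 CPM in that library and at 0.143 to 1.62 CPM in the other HP libraries. Without that cluster, levels of at least 1 CPM were 0.940 to 1.00 times their first value. According to the paper, the authors took contaminating blood cells out of their processed stromal data. The matrix held fewer stromal cells than the paper reports, so the low stromal Ptprc level cannot check the sort. Cell barcodes were shared between libraries by 2472 of the 56201 cells, and 334 of the 560 cells in replicate 1 of E16.5 HPs carried a barcode that also occurred elsewhere. When only the copy with the most UMIs was kept, 1370 cells were removed, levels of at least 1 CPM were 0.910 to 1.01 times their first value, and the counts of members called between compartments and between HP stages were the same.

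Wnt proteins are lipid-modified ligands that act over short distances. They bind Frizzled receptors together with the co-receptors Lrp5 and Lrp6 to stabilize β-catenin, or engage Frizzled with Ror and Ryk receptors in β-catenin-independent pathways that orient cells. R-spondins bind Lgr receptors and spare Frizzled from degradation by Znrf3 and Rnf43, Sfrp proteins sequester Wnts, and Dkk proteins block the Lrp co-receptors. In the skeleton this system is known for its part in cartilage maturation, joint formation and bone mass, and in marrow it has been studied as a signal from stroma to blood progenitors.

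The first question was which compartment expressed these genes. Most were stromal. For 28 of the 36 genes, every stromal library had a higher CPM than every HP library, against 28.5% of all genes in the matrix, and for 0 genes was the reverse true, against 21.2% of all genes. These 28 included 9 Wnt, 8 Frizzled, 4 Sfrp, 3 Dkk and 4 R-spondin genes. In edgeR's quasi-likelihood test over the 9 libraries, with stage as a covariate and Benjamini-Hochberg adjustment over 18407 genes, 27 of the 33 genes tested were higher in stroma, against 32% of all genes tested. The test called 0 of them lower, against 25.8% of all genes. DESeq2 called 30 higher (36.6% of all genes) and 0 lower (27.6%), and 0 were lower at an unadjusted p under 0.05 in edgeR (28.6%). The median log2 fold over the 33 genes was 5.62, and over all genes tested it was 0.05.

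**Figure D1:**
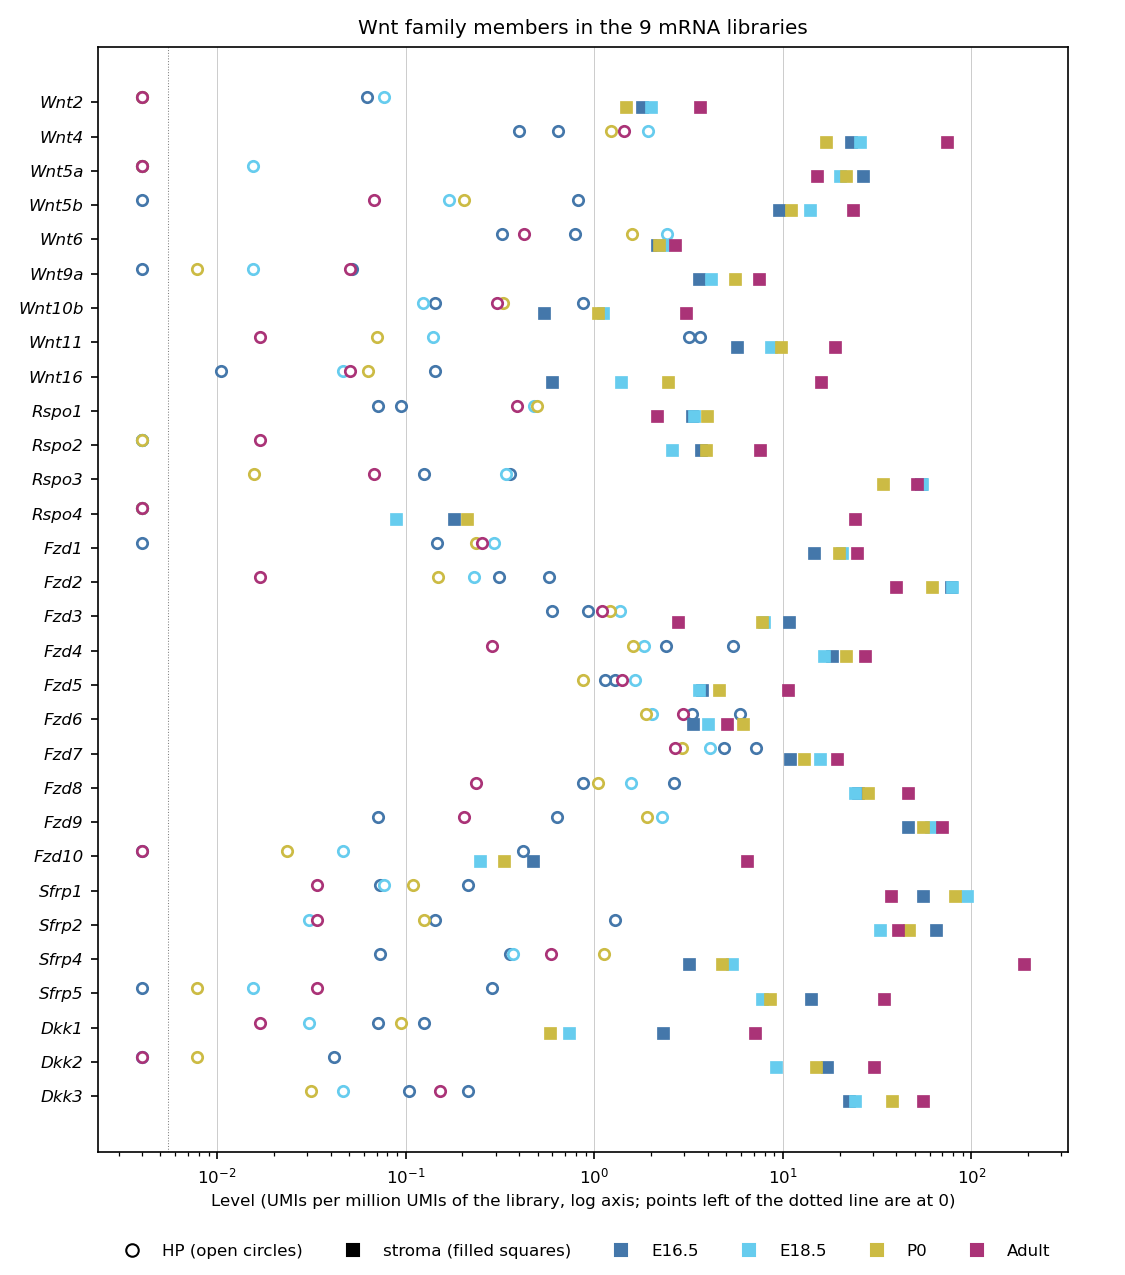
Level of each gene with at least 200 UMIs (rows, by family) in each library, in CPM on a log axis, with open circles for HPs, filled squares for stroma, colours for stages and points at 0 drawn left of the dotted line. Stromal squares lie to the right of all HP circles for most rows, and Fzd6 and Wnt6 are among the rows where the compartments overlap.

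The Wnt-sequestering protein Sfrp1 was far apart between compartments in every library. Its level in HPs was 0.215 and 0.0730 CPM in the libraries of E16.5, 0.0771 in that of E18.5, 0.110 in that of P0 and 0.0338 in that of adults. In stroma it was 55.1 CPM (E16.5), 94.996 (E18.5), 81.8 (P0) and 37.4 (adult). The log2 fold was 9.69 (SE 0.37, adjusted p = 1.16e-05 in edgeR's quasi-likelihood test). The R-spondin Rspo3 (log2 fold 8.73, SE 0.63), the receptor Fzd2 (8.61, SE 0.48) and the ligand Wnt4 (4.79, SE 0.40) were also called higher in stroma. For Wnt5a, Dkk2, Rspo2 and Rspo4, HPs held 5 UMIs or fewer in all, so no fold is given from the fit. Rspo4, an R-spondin known from nail development, had 0 UMIs in all 5 HP libraries, which allows a level of up to 0.00830 CPM over the 5 libraries (3 UMIs, the limit used here for a count of 0), and stroma as a whole was at least 534-fold higher. That fold rests mainly on the adult library, which held 2218 of the 2290 stromal Rspo4 UMIs. Perinatal stroma was at 0.0889 to 0.210 CPM. At the other end stood the receptor Fzd7, with 2.69 to 7.23 CPM in HPs and 10.9 to 19.4 CPM in stroma and a log2 fold of 1.95 (SE 0.35, adjusted p = 0.00312 in edgeR's quasi-likelihood test).

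6 tested genes were not called. Among them Fzd6, a receptor known for aligning hairs, had 1.89 to 5.94 CPM in HPs and 3.35 to 6.13 CPM in stroma, ranges that overlapped (log2 fold 0.76, adjusted p = 0.180 in edgeR). Wnt6 had 0.323 to 2.42 CPM in HPs against 2.15 to 2.69 CPM in stroma, and was likewise not called (1.39, adjusted p = 0.0550 in edgeR). The other uncalled genes were Fzd10, Wnt10b, Wnt2b and Wnt10a. DESeq2 called Wnt6 (adjusted p = 0.0101), Fzd10 (0.00772) and Wnt10b (0.00754) higher in stroma, and edgeR with DESeq2 size factors called Wnt6 (adjusted p = 0.0461). Without the E16.5 stromal library edgeR called Fzd6 (adjusted p = 0.0473), Fzd10 (0.0455) and Wnt10b (0.0239), and without replicate 2 of E16.5 HPs it called Fzd10 (0.0247) and Wnt10b (0.00777). The call for Wnt11 (log2 fold 6.05, SE 1.59, adjusted p = 0.0153 in edgeR) did not hold without some libraries. It was lost without HPs at E18.5 (log2 fold 6.07, adjusted p = 0.0573), HPs at P0 (5.38, 0.0709), stroma at E18.5 (6.10, 0.0599) or stroma at P0 (5.42, 0.0714), with a fold of similar size each time. Without the stage term the fold was 3.04 (adjusted p = 0.0572), and Fzd10 (adjusted p = 0.0294) and Wnt10b (0.0280) were called.

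The adult stroma differed most from the other stromal libraries. A gene was counted as different between stages if its CPM differed at least 2-fold with at least 50 UMIs over both libraries. Between E16.5 and E18.5, 2 of 30 genes were higher at E18.5 (Wnt16 and Wnt10b; 2.52% of all genes) and 1 was lower (Dkk1; 4.28%). Between E18.5 and P0, 1 of 31 was higher at P0 (Rspo4; 3.65%) and 0 were lower (0.618%). Between E16.5 and P0, 1 of 31 was higher at P0 (Wnt16; 6.1%) and 1 was lower (Dkk1; 3.4%). From P0 to the adult, 13 of 32 genes were higher (18% of all genes) and 3 were lower (10.8%). The higher genes were the ligands Wnt2, Wnt4, Wnt5b, Wnt7b, Wnt10b and Wnt16, the R-spondin Rspo4, the receptors Fzd5 and Fzd10, and the inhibitors Sfrp4, Sfrp5, Dkk1 and Dkk2, and the lower genes were Sfrp1, Fzd3 and Wnt2b. From E16.5 to the adult, 16 of 31 genes were higher (22.4%) and 1 was lower (Fzd3; 13.5%). With mitochondrial and ribosomal protein genes and Gm42418 out of the denominator, 10 were higher and 4 lower (Fzd3, Fzd2, Sfrp2 and Wnt5a), against 16.4% and 20.5% of all genes.

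Among the ligands, Wnt4, known for a part in chondrocyte maturation, was at 22.9 CPM in E16.5 stroma, 25.8 (E18.5), 16.9 (P0) and 74.6 CPM (adult), 4.41-fold higher in the adult than at P0, and 49.5 CPM and 3.50-fold with each cell weighted equally. Wnt16, a ligand known for maintaining cortical bone, stood at 0.599, 1.39, 2.47 and 16.0 CPM over the same stages. It was the ligand with the largest adult to P0 ratio, 6.47. Wnt5a, which directs cell polarity, had the opposite order of extremes, with 26.7 CPM (E16.5), 20.0 (E18.5), 21.6 (P0) and 15.2 CPM (adult), and did not reach the fold.

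Of the R-spondins, Rspo4 was at 0.180, 0.0889 and 0.210 CPM in perinatal stroma and at 24.1 CPM in the adult, a ratio of 115 between adult and P0 (95% interval 84.3 to 160). With each cell weighted equally, adult Rspo4 was at 10.8 CPM and the ratio was 61.5. Rspo3 had 54.2, 54.9, 34.0 and 51.8 CPM and stayed within 2-fold between stages. Rspo2, known from limb development, had 3.67, 2.60, 3.90 and 7.60 CPM, and Rspo1 had 3.31, 3.36, 3.95 and 2.16 CPM. Rspo4 was the only one of the 4 past the fold between adult and P0 in summed UMIs, while Rspo2 was 2.78-fold higher with each cell weighted equally and Rspo1 passed the fold as lower with TMM scaling or the denominator given below.

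Among the receptors, Fzd10 was at 0.470, 0.249 and 0.334 CPM in perinatal stroma and 6.49 CPM in the adult, 19.5-fold above P0 (95% interval 15.0 to 25.5), and 30.5-fold with each cell weighted equally. Fzd5 was 2.33-fold higher in the adult, at 3.75, 3.61, 4.60 and 10.7 CPM from E16.5 to adult, but was under 2-fold with the other denominator given below. Fzd3, a receptor known from axon guidance, was lower in the adult, at 10.7, 7.90, 7.71 and 2.79 CPM, a ratio to P0 of 0.361, or 0.232 with each cell weighted equally. The other Frizzled genes stayed within 2-fold of their P0 level in the adult.

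The inhibitors moved in both directions. Sfrp4, whose loss in people thins cortical bone, was at 3.19, 5.36 and 4.74 CPM in perinatal stroma and at 191 CPM in the adult, a ratio to P0 of 40.2 (95% interval 37.6 to 43.0). Dkk1, a Lrp blocker that restrains bone formation, was at 2.31, 0.738, 0.580 and 7.12 CPM, 12.3-fold higher in the adult than at P0 (95% interval 10.0 to 15.1) and 7.60-fold with each cell weighted equally. Sfrp1 was instead lower in the adult, at 0.457 of its P0 level, or 0.536 with each cell weighted equally, which is short of the 2-fold limit. The sum of 6 osteolineage markers was 100 to 102 CPM in perinatal stroma and 4036 CPM in the adult, and the sum of 5 CAR cell markers was 82.4 to 96.3 against 1079 CPM. From P0 to the adult the sums of PaS markers (387 and 1382 CPM), hypertrophic chondrocyte markers (163 and 643), tendon fibroblast markers (359 and 1551) fibroblast markers (9867 and 22753), pericyte and smooth muscle markers (261 and 451) and endothelial markers (51.5 and 217) were higher as well. The sums of muscle progenitor (63.2 and 12.9 CPM), Schwann cell (268 and 170), melanocyte (15.3 and 1.11), neuronal (38.4 and 23.0) and chondrocyte markers (35775 and 28614) were lower. Of the blood cell lists, the erythroid (2.64 and 59.6 CPM) and dendritic sums (719 and 9200) rose most, and the NK sum was lower (0.0924 and 0.0544). The sum of general blood cell markers was 1.95 and 1.97 CPM. Siglech, a dendritic marker, had 0 UMIs in adult stroma, and the dendritic list was the second-best match of adult clusters F9 and F10. The dendritic sum therefore need not stand for dendritic cells. Mitochondrial and ribosomal protein genes with Gm42418 took 28.6 to 33.9% of UMIs in perinatal stroma and 16.2% in the adult. With those genes out of the denominator, 10 genes were higher and 4 lower in the adult than at P0, against 13.2% and 14.6% of all genes, with Fzd5, Dkk2 and Wnt5b no longer past the fold and Rspo1 added as lower. The part of cell composition in the library differences was not tested.

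**Figure D2:**
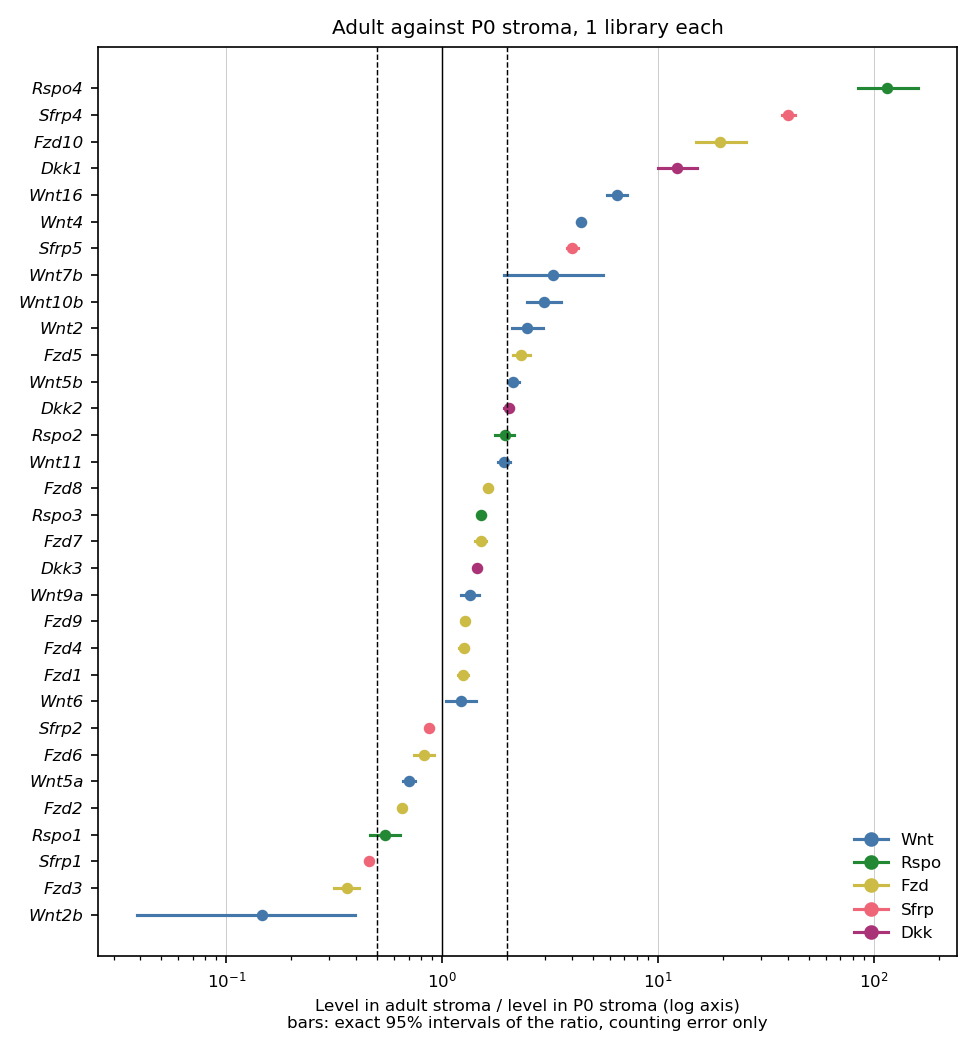
Adult stroma against P0 stroma, as the ratio of CPM on a log axis for each gene with at least 50 UMIs over both libraries, with exact 95% intervals that cover counting error only. Rspo4 and Sfrp4 lie farthest above 1, at 115 and 40.2, and Wnt2b, Fzd3 and Sfrp1 lie below 0.5.

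Cluster levels place these genes in particular cells. Clusters are the deposited ones, and since they were built from the same counts, their levels are a description with no test. In the adult, CARs, the Cxcl12-rich reticular cells of the marrow (359 cells), held Sfrp4 at 904 CPM (95% interval 870 to 938), Rspo3 at 317 CPM (297 to 338) and Wnt4 at 205 CPM (189 to 222). They supplied 49.6% of adult stromal Rspo2 UMIs, at 115 CPM, and 32.6% of Fzd5 UMIs, at 107 CPM. A ligand, R-spondins, a receptor and a Wnt inhibitor thus all occurred in 1 cluster.

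Fibroblast cluster F8, which carried the PaS markers Pi16, Clec3b and Dpt, supplied 70.5% of adult Sfrp4 UMIs, at 849 CPM (834 to 864). It was also the main source of Wnt2 (94.6% of adult UMIs, 21.8 CPM), Dkk2 (79.6%, 153 CPM), Sfrp1 (76.9%, 182 CPM) and Wnt10b (61.1%, 11.9 CPM). Wnt10b, a ligand that favours bone formation over fat, thus shared its main cluster with several inhibitors. Cluster Osteo, led by the bone matrix genes Bglap and Ibsp, supplied 65.2% of adult Wnt16 UMIs at 170 CPM (160 to 182), 56.6% of Dkk1 UMIs at 65.96 CPM (59.4 to 73.0) and 56.6% of Sfrp2 UMIs at 376 CPM (360 to 393). Wnt16, Dkk1 and Sfrp2 were among the 10 genes with the largest excess in this cluster.

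Cluster F9, led by Msmp, Cytl1, Frzb and Wif1, held 50.2% of adult Fzd9 UMIs, at 257 CPM (248 to 266), and 55.5% of Fzd10 UMIs, at 26.4 CPM (23.6 to 29.4). Frzb, a further Wnt-binding inhibitor, stood at 392 CPM there and Wif1, another, at 2795 CPM. Adult fibroblast cluster F10 had the divergent Dickkopf Dkk3 at 156 CPM and Fzd8 at 128 CPM. Tendon cluster F11, marked by Tnmd, held Fzd1 at 97.2 CPM and 36.4% of adult Wnt6 UMIs at 21.1 CPM.

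**Figure D3:**
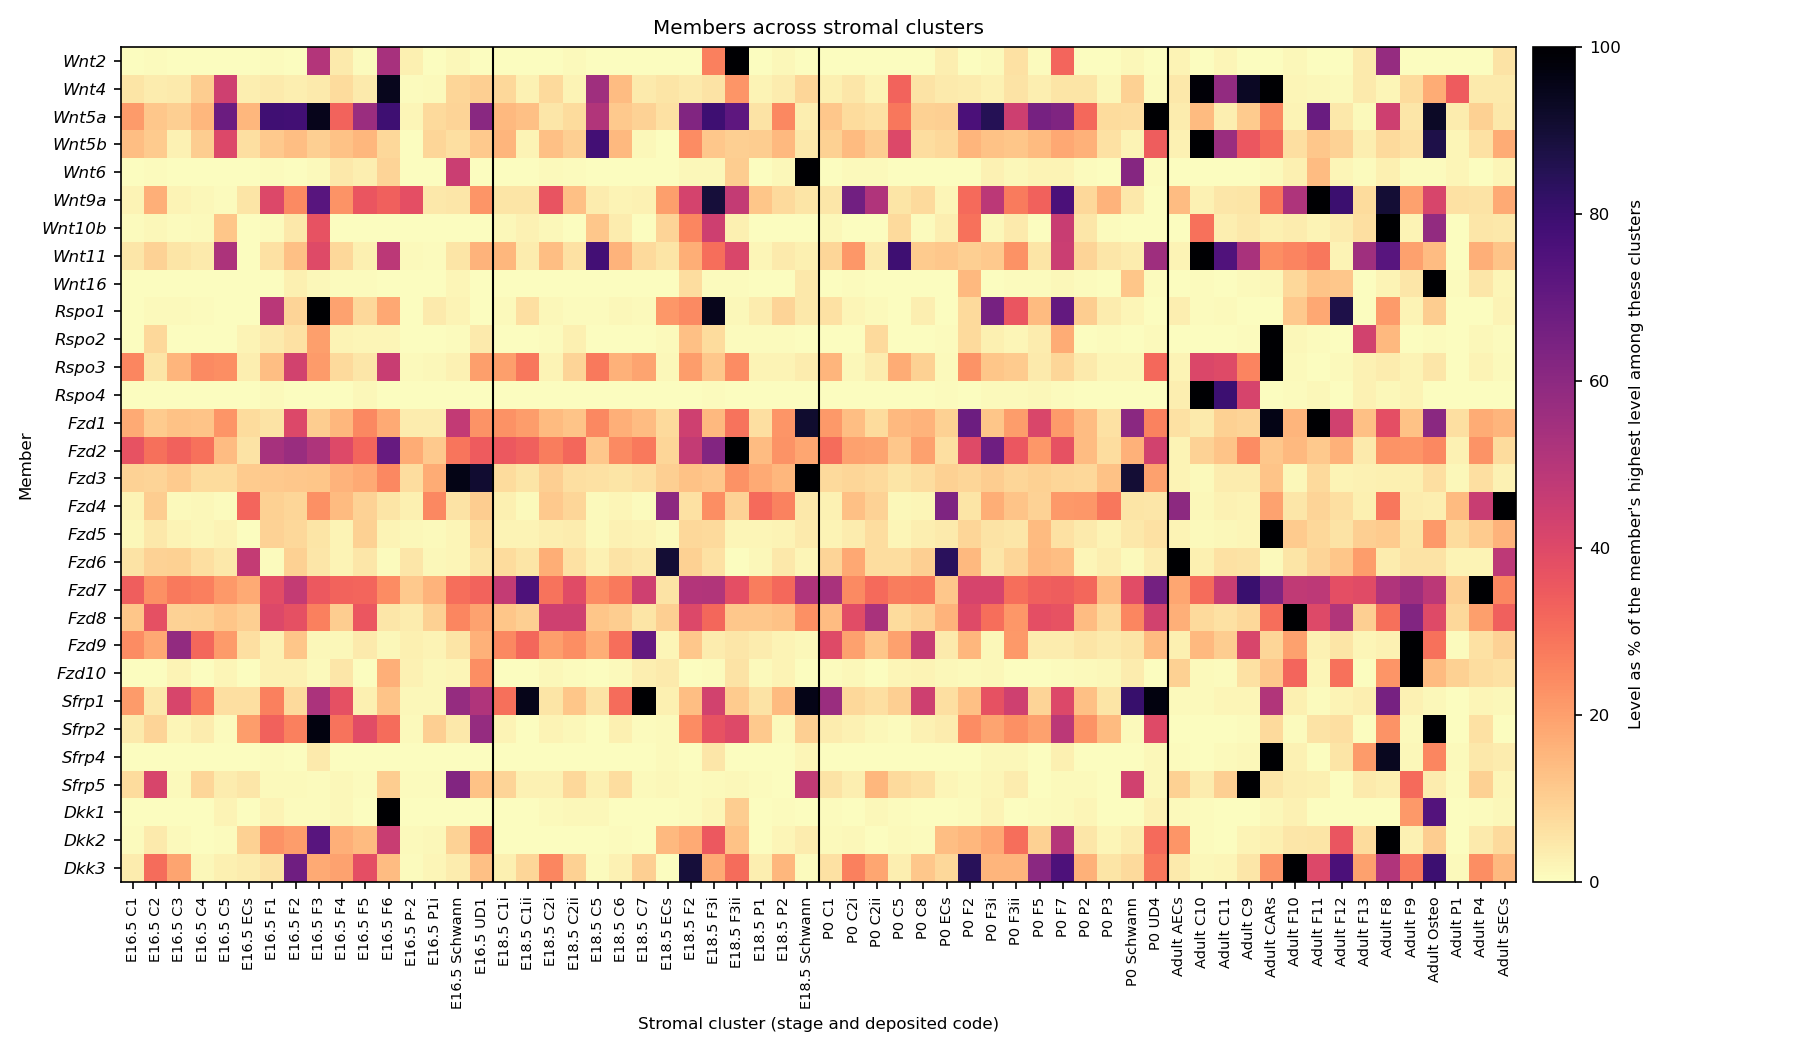
Map of the 30 genes with at least 200 UMIs (rows) over 60 stromal clusters (columns, by stage), coloured by the level as a percentage of the gene's highest level among these clusters. Clusters with under 50 cells or with few UMIs per cell, 6 in all, were left out, and single cells of strong colour such as Wnt16 in the adult Osteo cluster show genes held by few clusters.

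Perinatal fibroblasts with PaS markers among their leading genes were also main sources of Wnt2, Dkk2 and Wnt10b, which adult F8 supplied. Sfrp1, another F8 gene, was at 83.0, 142 and 137 CPM in perinatal cartilage (the chondrocyte-like clusters given below), above its level in each whole library. Wnt2 came from F3 at E16.5 (68.6% of the library's UMIs), F3i at E18.5 (51.3%) and F7 at P0 (89.5%), Dkk2 from the same clusters (41.6%, 60.8% and 54.8%) and Wnt10b likewise (52.4%, 48.8% and 55.7%). Sfrp4 came from F3 at E16.5 (73.2%, 36.4 CPM) and F3i at E18.5 (83.9%, 43.6 CPM), below its 849 CPM in adult F8. At E16.5, cluster F6 (184 cells, led by Cxcl14, Twist2 and Crabp1) supplied 75.2% of Dkk1 UMIs at 89.2 CPM (77.3 to 102) and held Wnt4 at 194 CPM (176 to 213) and Rspo3 at 145 CPM (130 to 161). The same cluster held the Wnt feedback targets Axin2 at 53.6 CPM and Nkd1 at 160 CPM. Cluster F3ii of E18.5, also led by Twist2 and Crabp1, held Fzd2 at 236 CPM (218 to 255) and 46.0% of Wnt2 UMIs at 37.9 CPM. In E16.5 cluster F3, which carried PaS markers, Sfrp2 stood at 365 CPM (352 to 379), Wnt5a at 65.8 CPM (60.1 to 71.9) and Rspo1 at 24.4 CPM (21.0 to 28.2). P0 cluster F2 supplied 69.6% of that library's Wnt16 UMIs, at 24.6 CPM.

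Nerve and vessel cells had separate sets. Schwann cells, which were captured at the 3 perinatal stages, held Wnt6 at 68.6, 152 and 94.0 CPM from E16.5 to P0, and supplied 53.8%, 53.3% and 47.3% of the Wnt6 UMIs of these libraries while making up 2.01%, 1.08% and 1.11% of their cells. They also held Fzd3 at 80.8, 84.4 and 75.9 CPM, Sfrp1 at 160, 265 and 224 CPM and Sfrp5 at 106, 81.1 and 74.5 CPM. In endothelial cells Fzd4, the receptor through which Norrin patterns retinal vessels, was at 72.4, 134 and 142 CPM at the perinatal stages and 173 CPM in the adult. Within adult vessels, Fzd4 was higher in SECs (224 CPM, 203 to 246) than in AECs (134 CPM, 120 to 150), and Fzd6 was higher in AECs (59.0 CPM, 49.7 to 69.6) than in SECs (28.6 CPM, 21.4 to 37.4), with no overlap of the counting intervals.

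Cartilage was compared between stages within cell classes. Chondrocyte-like clusters carried all 6 chondrocyte markers, such as Col2a1 and Acan, and were not led by hypertrophic genes (C1, C3 and C4 at E16.5, C1i, C1ii, C6 and C7 at E18.5, C1 and C8 at P0, C9 and C11 in the adult). Hypertrophic chondrocyte-like clusters were led by Col10a1, Ihh and Panx3 (C5 at each perinatal stage and C10 in the adult). The perinatal clusters C2, C2i and C2ii also carried all 6 chondrocyte markers but were led by other genes, such as Prg4, Itgbl1 and Calml3, and were kept apart. Clusters CF1 of E18.5 (371 cells) and CF1 and CF2 of P0 (1095 and 1098 cells) carried the chondrocyte markers too, with Col10a1 among their leading genes, and were left out of both classes because they had too few UMIs per cell, with medians of 1379, 2367 and 516. Within the chondrocyte-like class, adult C11 (138 cells) was led by cell cycle genes such as Top2a and Cdk1, and E16.5 C3 by Cytl1, Gdf5 and Msmp. Adult F9, also led by Msmp and Cytl1, matched the osteolineage list best and was not in the class. Because different clusters make up a class at each stage, the comparisons are between those clusters.

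Wnt4 was higher in hypertrophic than in other cartilage at every perinatal stage. Its level in hypertrophic cells was 90.2 CPM (E16.5), 113 (E18.5), 66.8 (P0) and 202 CPM (adult), and in chondrocyte-like cells it was 13.1, 17.2, 9.06 and 170 CPM. The gap between the classes was thus small in the adult, where the chondrocyte-like level was 18.7-fold that of P0 (95% interval 17.1 to 20.5). Wnt11, a ligand known for cell movement, followed the same order, at 20.7, 30.9, 31.4 and 39.7 CPM in hypertrophic and 1.91, 4.97, 3.88 and 23.6 CPM in chondrocyte-like cells. Wnt5b stood at 28.7, 55.2, 28.6 and 70.9 CPM in hypertrophic cells. Wnt5a was lower at each later stage there, at 47.4, 35.5, 19.7 and 9.95 CPM.

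Rspo4 was high in adult cartilage. Hypertrophic cells had 0.0700 CPM at E16.5, 0 UMIs at E18.5 (which allows up to 0.242 CPM), 0.0356 CPM at P0 and 94.7 CPM in the adult, and chondrocyte-like cells had 0.113 CPM at P0 and 50.6 CPM in the adult, a ratio of 447 (95% interval 216 to 1116) that rests on 7 UMIs at P0. Adult C10 supplied 58.8% of Rspo4 UMIs in its library. In chondrocyte-like cells Sfrp1 was at 83.0, 142 and 137 CPM perinatally and 4.89 CPM in the adult, and Sfrp5 was at 9.42, 10.4, 10.1 and 124 CPM. With the C2 codes added, Sfrp5 was at 25.1, 10.2, 11.5 and 124 CPM, since E16.5 C2 held it at 71.1 CPM (66.5 to 76.0) and supplied 53.3% of that library's Sfrp5 UMIs, and P0 C2ii held it at 25.7 CPM. The adult to P0 ratio of Sfrp5 was 12.3 (95% interval 11.2 to 13.5) without these clusters and 10.8 (10.0 to 11.7) with them, and those of Wnt4, Wnt11, Rspo4 and Sfrp1 were 19.7, 5.58, 606 and 0.0459 with them. The counts of genes below were made without them. Adult C9 shared Pax1 and Calml3 among its leading genes with P0 C2ii. In hypertrophic cells Sfrp5 was at 12.8 CPM at P0 and 6.03 CPM in the adult, and Sfrp1 was at 17.6, 16.0, 27.2 and 2.54 CPM. The receptor Fzd9 varied little in chondrocyte-like cells, at 96.7, 92.5, 112 and 83.0 CPM. Adult C9 held Sfrp5 at 171 CPM (163 to 178), together with the Wnt effector Lef1 and the Wnt-inactivating enzyme Notum among its leading genes. From P0 to the adult, chondrocyte-like cells had 8 genes at least 2-fold higher and 5 lower of 23 (17.1% and 10.5% of all genes), and hypertrophic cells had 5 higher and 7 lower of 21 (9.43% and 10.4%).

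In endothelial cells 2 of 12 genes were higher in the adult (Sfrp4 and Sfrp5; 17.3%) and 1 was lower (Sfrp1; 4.57%). In smooth muscle-like cells (P2 at P0, P4 in the adult) 3 of 13 were higher (Fzd4, Fzd7 and Sfrp4; 14%) and 3 lower (Sfrp1, Sfrp2 and Wnt5a; 6.54%). In muscle progenitor-like cells (P3 at P0, P1 in the adult) 1 of 14 was higher (15.6%) and 8 were lower (18.7%), and the higher gene was Wnt4, at 70.7 CPM against 3.09 CPM. Endothelial Sfrp1 was at 17.6 CPM at P0 and 3.05 CPM in the adult, and muscle progenitor-like cells, at 14.3 CPM and 0 UMIs, had the lowest level in each library of any cluster with at least 50 cells and enough UMIs per cell for the cluster map. Sfrp4 was at 1.23 CPM (3 UMIs) at P0 and 19.0 CPM in the adult in endothelial cells and at 0.285 CPM (1 UMI) and 40.8 CPM in smooth muscle-like cells, while the lowest adult clusters, C10 and F11, held it at 1.96 and 3.28 CPM. Free RNA from other cells was not tested as a source of these UMIs.

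**Figure D4:**
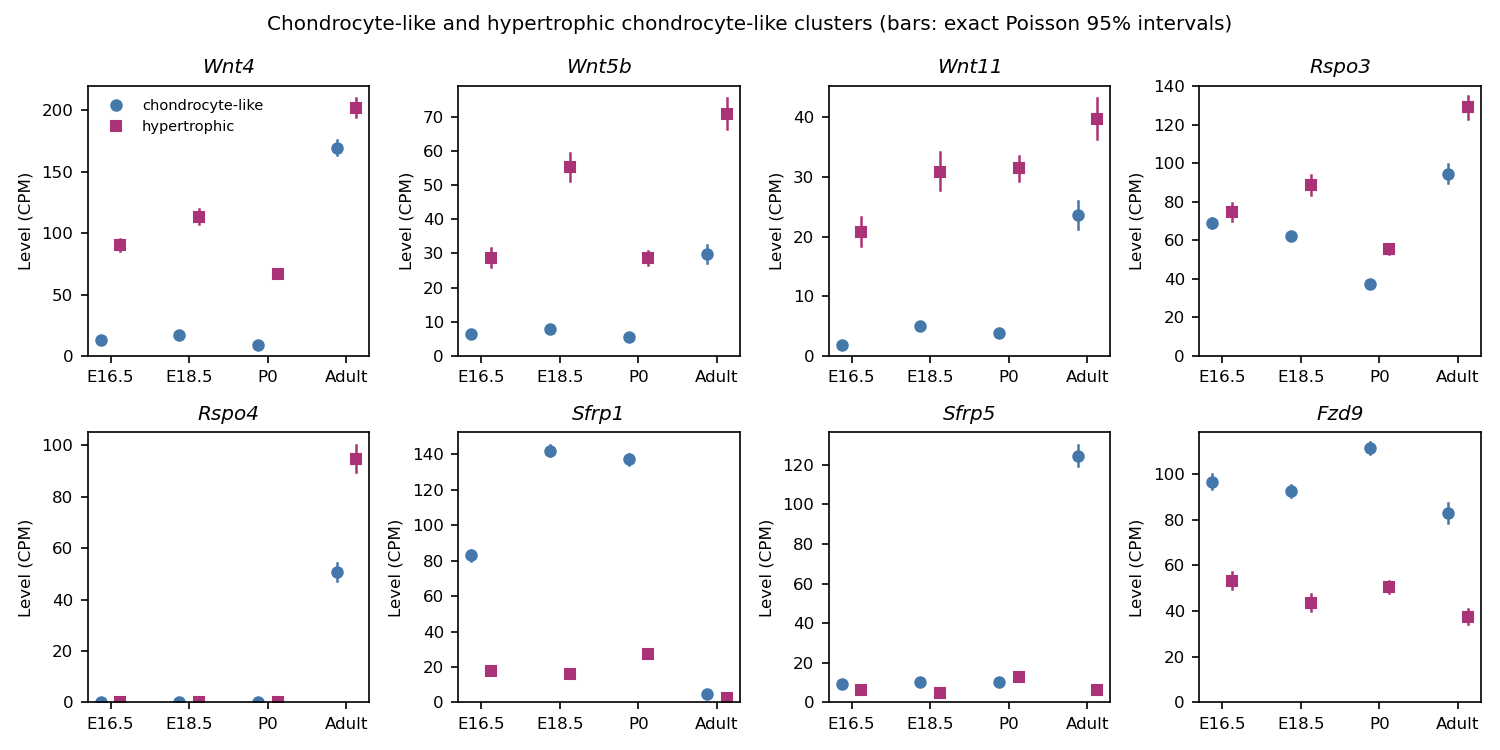
Level (CPM, linear axes from 0) of 8 genes in chondrocyte-like (circles) and hypertrophic chondrocyte-like (squares) clusters at each stage, with exact 95% Poisson intervals. Wnt4 and Rspo4 are high in both classes in the adult, Sfrp1 is low in both, and Fzd9 is higher in chondrocyte-like clusters at every stage.

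The promoters of Wnt4, Wnt11 and Rspo4 are shown as examples of genes that were high in adult cartilage. They are not the full set. Wnt4, Rspo4, Wnt5b and Rspo3 were at least 2-fold higher in the adult than at P0 in both classes, and Wnt11 only in chondrocyte-like cells. Each line gives the 250 bases before a RefSeq transcript start on GRCm38.p6, the assembly also called mm10, read 5′ to 3′ on the plus strand. Wnt4 lies at chr4:137277385-137277634, Wnt11 at chr7:98834862-98835111 (start 1) and chr7:98838595-98838844 (start 2), and Rspo4 at chr2:151842677-151842926. Capitals mark a match to the TCF/LEF motif CTTTGAT on either strand.
Wnt4: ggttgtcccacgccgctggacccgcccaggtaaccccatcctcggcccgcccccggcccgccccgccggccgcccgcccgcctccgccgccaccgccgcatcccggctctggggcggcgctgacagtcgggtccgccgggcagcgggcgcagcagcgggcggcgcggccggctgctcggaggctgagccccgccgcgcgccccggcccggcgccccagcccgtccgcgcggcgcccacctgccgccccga
Wnt11, start 1: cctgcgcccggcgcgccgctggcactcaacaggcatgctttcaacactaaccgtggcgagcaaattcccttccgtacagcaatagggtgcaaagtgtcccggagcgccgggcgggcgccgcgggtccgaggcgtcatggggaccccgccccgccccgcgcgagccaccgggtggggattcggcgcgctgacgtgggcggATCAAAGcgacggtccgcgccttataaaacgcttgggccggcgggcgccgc
Wnt11, start 2: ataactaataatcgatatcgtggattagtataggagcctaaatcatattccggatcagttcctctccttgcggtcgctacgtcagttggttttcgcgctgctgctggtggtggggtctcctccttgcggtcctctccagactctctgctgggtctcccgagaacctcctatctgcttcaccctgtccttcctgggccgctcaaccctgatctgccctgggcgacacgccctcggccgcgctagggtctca
Rspo4: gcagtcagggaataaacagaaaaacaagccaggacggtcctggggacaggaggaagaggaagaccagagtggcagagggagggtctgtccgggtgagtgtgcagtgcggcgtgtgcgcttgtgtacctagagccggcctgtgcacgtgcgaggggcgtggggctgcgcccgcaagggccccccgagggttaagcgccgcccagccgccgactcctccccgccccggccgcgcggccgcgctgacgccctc
A TCF/LEF match was found only in the first Wnt11 window, where it reads ATCAAAG, and 3.21% of the 32851 windows of this length hold one. Neither the RUNX motif TGTGGT (14.0% of windows) nor the SOX motif AACAAT (9.42%) was found in any of these 4. GC content was 85.2% for Wnt4, 70.8% and 56.8% for Wnt11 and 69.6% for Rspo4. The 3′ libraries do not tell which start was used.

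In HPs these genes were sparse. Against E16.5, edgeR's quasi-likelihood test, which had its only replicates at E16.5, covered 22 of the 36 genes. The 2 libraries of E16.5 differed in makeup, with T cell clusters at 0.893% and 41.1% of cells and T cell markers at 25.9 and 2028 CPM. These shares leave out cluster TCell5 (13 and 186 cells), which matched the NK marker list best. The monocyte and macrophage marker sum was 1607 and 184 CPM. Cluster Mono/Mast, led by macrophage genes such as C1qa, held 161 of 560 and 142 of 4752 cells. The megakaryocyte marker sum was 583 and 56.8 CPM. Pf4, 1 of those markers, was a leading gene of Mono/Mast, and no E16.5 cluster matched the megakaryocyte list best. The test took these libraries as replicates of 1 stage. At E18.5 it called 0 (0.00621% of all genes higher, 0% lower), with 2 at an unadjusted p under 0.05 (6.5% of all genes) and 1 under DESeq2 (Wnt11, lower, adjusted p = 0.00422; 1.59% of all genes lower). At P0 it called 0 (0.168% and 0.124%), with 1 at an unadjusted p under 0.05 (8.49%) and 1 under DESeq2 (Wnt11 again, adjusted p = 1.61e-04; 2.59% lower). In the adult it called 1 lower gene and 0 higher (1.35% higher, 0.993% lower), with 4 at an unadjusted p under 0.05 (15.3%) and 2 lower under DESeq2 (5.01%). The counts at an unadjusted p were thus near the share of all genes. The lower gene was Wnt11, with a log2 fold of -7.35 (SE 1.34, adjusted p = 0.0407 in edgeR).

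Wnt11 was at 3.65 and 3.17 CPM in the E16.5 HP libraries, 0.139 (E18.5), 0.0706 (P0) and 0.0169 CPM (adult). The adult value is 1 UMI, and the E16.5 libraries together stood 191-fold above it (95% interval 34.1 to 7581). Mast cells, which were 46.3% and 38.0% of E16.5 HPs, carried 82.4% and 88.5% of its UMIs, and the mast marker sum was 35021 and 25573 CPM at E16.5 against 271 to 1436 CPM later. Within mast clusters Wnt11 was at 5.70 CPM (4.11 to 7.71) and 8.23 CPM (7.28 to 9.28) at E16.5, 1.43 CPM (0.524 to 3.11) at E18.5 and 0.510 CPM (0.0618 to 1.84) at P0. The Wnt11 level was thus lower in the later cluster Mast3 than in E16.5 mast clusters, with 6 and 2 UMIs behind the later values. Mast clusters with few UMIs per cell were kept out of the class. Of these, P0 Mast4 (274 cells) had 2 Wnt11 UMIs, or 10.5 CPM (1.28 to 38.1), but its leading genes included the stromal genes Col2a1, Col3a1 and Col1a1. E18.5 Mast/Bas (41 cells) and adult Mast4i (201 cells) had 0 UMIs, as did adult Mast4ii (120 cells), whose leading genes, such as C1qa and Mrc1, were macrophage rather than mast genes. Most cells of these clusters shared a barcode with another library (76.3% in P0 Mast4, 97.6% in E18.5 Mast/Bas, 96.5% in adult Mast4i and 81.7% in Mast4ii). No mast level is therefore given for the adult, the stage at which edgeR called Wnt11. The part of mast cell number in the library difference was not tested.

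Mast cells also held receptors. Fzd7 was at 8.69 and 9.42 CPM in E16.5 mast cells, 10.5 at E18.5 and 2.30 at P0, and Fzd6 was at 7.87, 6.30, 2.62 and 4.08 CPM. Fzd4 was at 6.79 and 5.69 CPM in E16.5 mast cells, and its library level was 5.44 and 2.40 CPM (E16.5), 1.84 (E18.5), 1.60 (P0) and 0.287 CPM (adult). DESeq2 (log2 fold -3.62) and edgeR with no filter on low counts (-3.58) called Fzd4 lower in the adult. The main edgeR fit, with that filter, did not (-3.55). Wnt11 and several Frizzled receptors were thus found in the same E16.5 mast clusters, and whether single cells held both was not examined. The receptors were not particular to mast clusters. At E16.5, DC1 held Fzd7 at 11.1 CPM in replicate 2 (9 UMIs), and Bcell1 held Fzd6 at 11.6 and 5.70 CPM. Cluster UD2, with few UMIs per cell and Col3a1 among its leading genes, held Fzd4 at 40.1 and 79.7 CPM. T cell clusters of replicate 2 held other members at low levels. TCell1 had Wnt5b at 2.22 CPM (24 UMIs), Wnt10b at 1.85 CPM (20 UMIs) and Fzd10 at 1.39 CPM (15 UMIs). TCell4 had Wnt10b at 2.92 CPM (19 UMIs), and TCell6 had Sfrp2 at 8.53 CPM (39 UMIs).

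The primitive HSPC clusters (HSPC2 at E18.5, HSPC2 and HSPC3 at P0, HSPC5 in the adult) were compared next. Wnt6 was at 5.49 CPM (4.13 to 7.14) at E18.5, 4.18 CPM (3.43 to 5.04) at P0 and 0.551 CPM (0.114 to 1.61) in the adult, and mast cells had 0 or 1 UMI of it per library. The receptor Fzd9 was at 6.18, 3.23 and 0.367 CPM over the same stages. Neither gene was particular to these clusters, since P0 LymP held Fzd9 at 5.42 CPM (3.73 to 7.61) and Wnt6 at 3.12 CPM, and E18.5 MyP1, which carried HSPC markers too, held Wnt6 at 3.65 CPM (2.61 to 4.97). Fzd6 was at 3.69, 2.77 and 10.5 CPM (7.92 to 13.6 in the adult), so its adult level lay above both perinatal intervals. Fzd6 was not particular to these clusters either, since adult Pre/Pro-B2, a cluster with few UMIs per cell, held it at 19.4 CPM. Fzd3 was at 3.79, 2.17 and 2.57 CPM. The E16.5 cluster with the deposited code HSPC1, whose leading genes included Cd209a and Flt3 and none of the HSPC markers, had Wnt6 at 4.70 CPM (2.83 to 7.35), and the E18.5 cluster Mono1i had Wnt6 at 6.43 CPM from 16 UMIs. The inhibitor Sfrp4 was found in erythroid progenitors, at 5.92 CPM (4.83 to 7.19) in P0 EryP1, which supplied 70.8% of that library's Sfrp4 UMIs. It was lower in E18.5 EryP/MegP (2.21 CPM) and adult EryP2 (1.94 CPM). With each cell weighted equally, the level of Sfrp4 in the whole P0 HP library was 0.650 CPM against 1.13 CPM in summed UMIs.

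**Figure D5:**
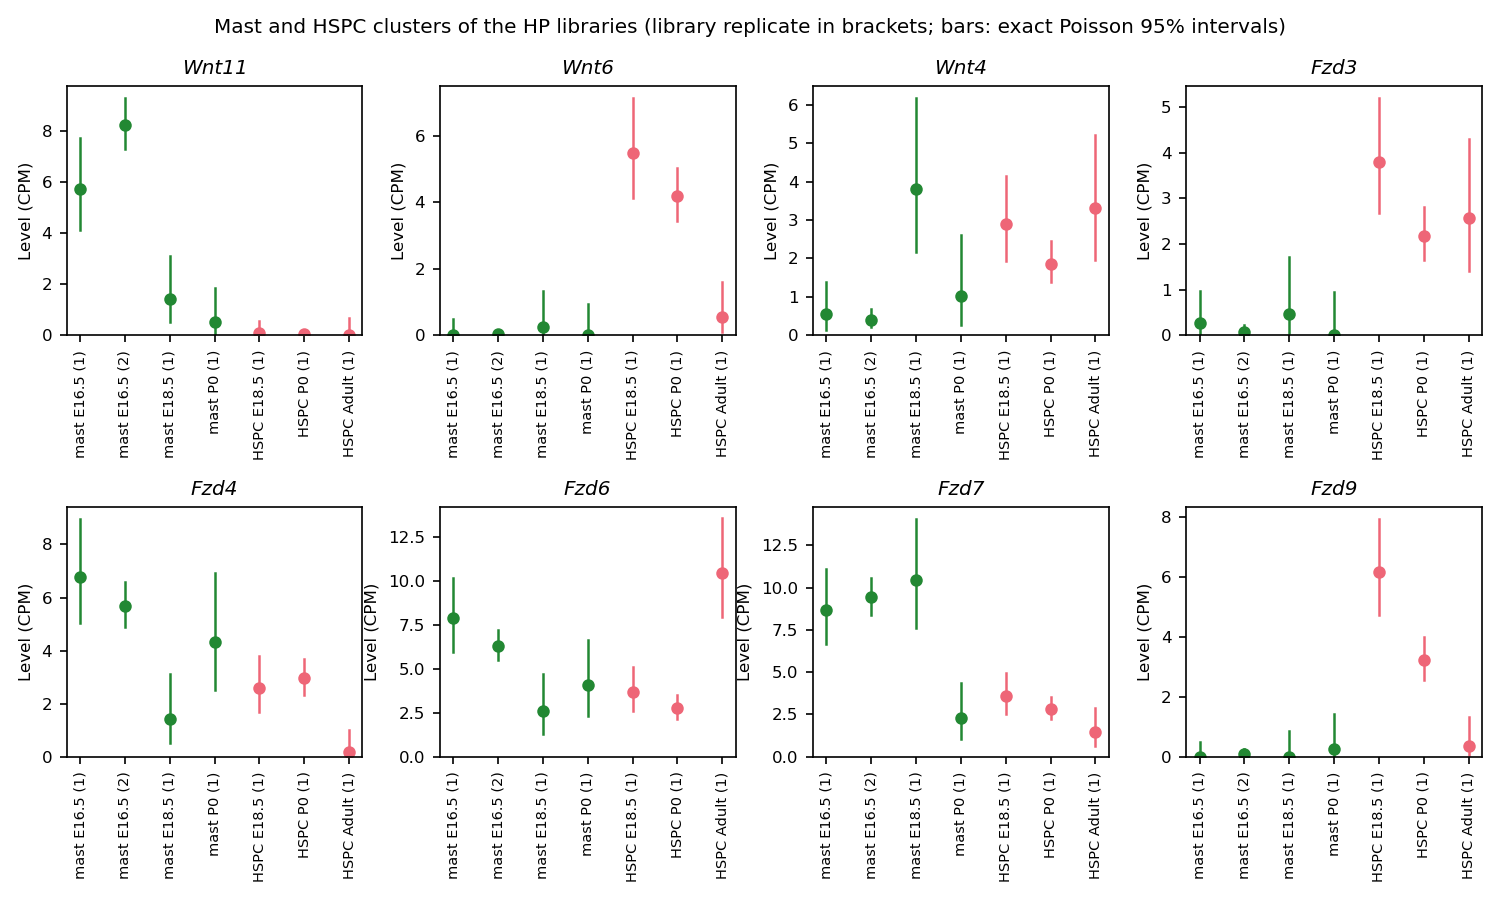
Level (CPM, linear axes from 0) of 8 genes in mast clusters (green) and HSPC clusters (red) of the HP libraries, by stage and with the library replicate in brackets, with exact 95% Poisson intervals. Wnt11 is highest in E16.5 mast cells, and among the classes drawn Wnt6 and Fzd9 are highest in perinatal HSPCs and Fzd6 in adult HSPCs.

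The remaining genes of the pathway were taken from a list of 44 co-receptors, R-spondin receptors, further inhibitors, transducers, nuclear factors and feedback targets. Of 43 tested, 31 were higher in stroma and 2 lower in edgeR's quasi-likelihood test, against 32% and 25.8% of all genes. The higher genes included the co-receptors Lrp4, Lrp5, Lrp6, Ror1 and Ror2, the R-spondin receptors Lgr4, Lgr5 and Lgr6, the Wnt carrier Wls (log2 fold 1.57) and the feedback targets Axin2 (1.93), Nkd1, Nkd2 and Notum. The lower genes were Dkkl1 (log2 fold -5.94) and the ubiquitin ligase Rnf43 (-6.05), which is itself on the list of feedback targets. Of the nuclear factors of the TCF/LEF family, Tcf7l1 (4.80) and Tcf7l2 (2.67) were called higher, and Lef1 (0.16) and Tcf7 (-1.77) were not called. Lef1 and Tcf7 are also on the list of feedback targets, so these targets did not all go the same way.

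The 6 rare genes were Wnt1 (38 UMIs in all), Wnt10a (90), Wnt7b (97), Wnt2b (159), Wnt8b (21) and Rspo4os (20). 2 pairs of Wnt genes lie close together in the genome. Wnt6 and Wnt10a on chromosome 1 are 6696 bases apart and Wnt10b and Wnt1 on chromosome 15 are 11650 bases apart.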

How the data were processed

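The deposited matrix held UMI counts per gene and cell, made by the authors with Cell Ranger 3.1.0 (mm10) and filtered by them on UMIs, genes and mitochondrial share, with clusters from Seurat 3.1.5. The paper also reports taking contaminating blood cells out of the processed stromal data. Members and gene lists were chosen with earlier results of these data known. Raw counts were summed per library or cluster and divided by total UMIs (CPM). Surface-protein libraries were not used here. Compartments (design: stage + compartment, 9 libraries) and HP stages (5 libraries) were tested with edgeR 4.0.16 (TMM, quasi-likelihood, Benjamini-Hochberg, R 4.3.3), with DESeq2 1.42.0 as an alternative. A check on simulated counts gave all genes the same spread and the libraries no differences in cell makeup. That check therefore does not cover libraries as unlike as the E16.5 HP pair. The study states that the single-cell experiments were done once, with several mice pooled per dataset, and no source used here says that the 2 libraries of E16.5 HPs came from separate animals, so p-values measure only the spread between libraries, which may be technical. Genes with at least 200 UMIs were given by library, and clusters were ranked among those of at least 50 cells and 10 UMIs of the gene. Cluster classes were named from marker genes. Doublets were not called again. Promoters came from RefSeq (GRCm38.p6), and Fzd8 sequence was not used. Intervals used scipy 1.17.1.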

Additional observations from a re-analysis of the deposited data

Results flagged for a closer look

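Of 13 genes examined in both compartments, 1 differed at least 2-fold in opposite directions between E16.5 and the adult, against 5.62% of the 12695 genes examined in the same way. Wnt11 was 3.32-fold higher in adult than in E16.5 stroma, while its adult HP level was 0.00463 and 0.00532 times that of the E16.5 HP libraries. The adult HP value rests on 1 UMI, each stromal stage is 1 library, and the difference between the compartments was not tested.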

How the results depend on the processing

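No paired analysis was possible because replicate number 2 occurs only within E16.5 HPs, so the groups compared share fewer than 2 replicate numbers. Stage, which pairs the compartments, was a term of the compartment fit, and without it 27 were higher and 0 lower, though not the same genes, since among those with at least 200 UMIs Fzd10 and Wnt10b were gained and Wnt11 was lost. Between compartments, leaving out 1 library at a time gave 26 to 30 genes higher and 0 lower. The share of all genes called was not counted for these fits or for the fit without stage, so their counts have no background to be set against. In HPs against E16.5, DESeq2 and the fit with no filter on low counts each called 1 gene lower at E18.5, 1 gene at P0 and 2 genes in adults (1.36%, 2.23% and 4.25% of all genes with no filter). In adults these genes were Wnt11 and Fzd4. Leaving out either E16.5 HP library leaves no residual degrees of freedom, and the E16.5 to adult ratio of Wnt11 was then 188 or 216. In stroma, a 4-fold limit left 0 genes higher and 0 lower at E18.5 against E16.5 (0.216% and 0.777% of all genes), 0 higher at P0 against E18.5 (0.491%), 0 lower at P0 against E16.5 (0.313%), 7 higher and 1 lower in the adult against P0 (6.39% and 4.5% of all genes), and 5 higher and 0 lower in the adult against E16.5 (9.91% and 5.57%). A minimum of 200 UMIs left 1 higher at E18.5 against E16.5 (1.8%) and 0 at P0 against E18.5 (1.87%). Without mitochondrial and ribosomal protein genes and Gm42418 in the denominator, 1 was higher and 4 lower at E18.5 against E16.5 (1.84% and 5.36% of all genes), and 10 were higher and 4 lower in the adult against E16.5 (16.4% and 20.5% of all genes). TMM scaling gave 2 higher at P0 against E16.5 (7.25% of all genes) and 13 higher and 2 lower in the adult against E16.5 (20.9% and 14.8%, without Wnt2, Wnt9a and Rspo2 and with Fzd2 lower), and 11 higher and 4 lower in the adult against P0 (14.9% and 13.1%, without Dkk2 and Wnt5b and with Rspo1 lower). The cause of these differences was not tested. Of levels of at least 1 CPM, averaging per cell moved library levels to 0.448 to 2.37 times their value (14 of 145 by over 1.5 times) and cluster levels to 0.443 to 1.39 times (3 of 137), and the other denominator moved them to 1.19 to 1.66 times (40 of 145) and 1.14 to 1.92 times (19 of 137). The lowest of these library ratios was that of adult stromal Rspo4, at 10.8 CPM per cell against 24.1, adult stromal Wnt4 was at 49.5 against 74.6, P0 stromal Fzd3 at 13.7 against 7.71 and Fzd4 in E18.5 HPs at 4.35 against 1.84 CPM. Weighting cells equally also took Wnt5b, at 1.66-fold in the adult against P0, below the 2-fold limit. With the other denominator, Wnt6 and Fzd9 in E18.5 HSPC2 were at 8.64 and 9.73 CPM and Fzd6 in adult HSPC5 at 20.1 CPM. Stroma held 0 clusters coded as blood after the authors' removal of blood cells, so leaving out blood clusters changed no stromal ratio. Leaving out lower copies of shared barcodes, leaving out cluster UD2 of E16.5 HPs and adding the C2 codes to cartilage were chosen after seeing the data.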
